A study of Mus musculus with 2 samples.

Results

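The tropomyosin genes Tpm1, Tpm2, Tpm3 and Tpm4 were followed through 2 long-read RNA libraries of mouse hippocampus, by taking every transcript model that the deposited tables assign to one of the 4 gene names. These are 4 of the 18311 known genes with reads, and they took up 39 transcript models in replicate 1 and 44 in replicate 2, of 122607 and 115971 mouse models. Both libraries belong to a single group. It holds male B6CASTF1/J mice, a cross between C57BL/6J and CAST/EiJ, aged 14 days, with no treatment or engineered allele named, and the tissue is labelled as a layer of the hippocampus. Each library was prepared from 2 µg of RNA of 3 pooled males, so single animals cannot be followed. The sample labels give other animals for each replicate while the text of the experiment lists those of replicate 1 in each case. Whether the libraries are of different animals is thus unsettled. In either case the p-values cover counting of reads only and measure no spread between animals.

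Tropomyosins are coiled-coil proteins that dimerise and join head to tail into a cable along the actin filament, where they govern access of myosin motors, cofilin, gelsolin and tropomodulin. The genes make many isoforms. In Tpm1 and Tpm3, a start at the upstream first exon 1a gives a long protein that also reads exon 2, and a start at the internal first exon 1b gives a short one. Exon 6 exists in mutually exclusive versions 6a and 6b in Tpm1, Tpm2 and Tpm3, and a choice among exons 9a to 9d sets the carboxyl terminus. Isoforms ending in 9a bind troponin in striated muscle, and Tpm1 isoforms ending in 9c are known from brain. In neurons, tropomyosins from Tpm3 and Tpm4 are known from growth cones and postsynaptic sites. Exons are named here by their place in the gene, from the coding transcripts of GENCODE M21 on mm10.

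The exon 6 versions are printed first, since the main result for Tpm3 turns on them. All are 76 bases long, given 5′ to 3′ as the coding strand of the C57BL/6J reference. Capitals mark the bases at which 6a and 6b of the same gene differ. For Tpm4, which has a single exon 6, capitals mark the bases that differ from Tpm3 exon 6b.
Tpm3 exon 6a, chr3:90088401-90088476, plus strand: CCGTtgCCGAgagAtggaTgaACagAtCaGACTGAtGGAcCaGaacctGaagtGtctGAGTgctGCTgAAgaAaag
Tpm3 exon 6b, chr3:90089048-90089123, plus strand: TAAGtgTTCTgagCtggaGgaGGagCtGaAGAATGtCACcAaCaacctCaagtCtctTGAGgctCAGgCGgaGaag
Tpm1 exon 6a, chr9:67032466-67032541, minus strand: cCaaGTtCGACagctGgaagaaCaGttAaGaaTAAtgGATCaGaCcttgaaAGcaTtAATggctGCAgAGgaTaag
Tpm1 exon 6b, chr9:67031951-67032026, minus strand: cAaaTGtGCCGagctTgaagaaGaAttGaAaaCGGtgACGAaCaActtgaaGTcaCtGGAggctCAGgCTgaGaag
Tpm4 exon 6, chr8:72146452-72146527, plus strand: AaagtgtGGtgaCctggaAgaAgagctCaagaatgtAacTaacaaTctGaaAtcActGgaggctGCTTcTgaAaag
Within Tpm3, 6a and 6b matched at 39 of 76 bases. Exon 6b of Tpm3 was nearer to exon 6b of Tpm1, with 57 of 76 bases the same, and to exon 6b of Tpm2, with 58 of 76, than to its own alternative. The single exon 6 of Tpm4 matched Tpm3 exon 6b at 56 of 76 bases and Tpm3 exon 6a at 42 of 76. By sequence it stood with the 6b versions.

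Replicate 1 held 832263 reads, of which 821324 were mouse, and replicate 2 held 753385, of which 743862 were mouse. Levels are given as CPM, reads per 1000000 mouse reads of the library. Each long read was counted 1 time whatever its length, so CPM was not divided by length. The leading models of Tpm3, Tpm1 and Tpm4 had 2230, 2890 and 2128 bases. The next Tpm1 models, Tpm1-210, Tpm1-207 and Tpm1-206, were shorter as annotated, with 1054, 962 and 998 bases. The ends of annotated models are the catalogue's and were not measured. Tpm1-210 and the leading Tpm1 model, Tpm1-209, share last exon 9c, given as 242 and 1973 bases. The length of 1054 bases thus need not be that of the reads. An effect of length on the counts was not tested. A count of 0 allows up to 3.65 CPM in replicate 1 and 4.03 CPM in replicate 2. Between the libraries, 140 of 8875 genes with at least 20 reads passed Fisher's exact test with Benjamini-Hochberg adjustment at 0.05. The 4 oligodendrocyte markers Mbp, Mobp, Cnp and Mag were all lower in replicate 2, with 4169 and 1808 summed reads. There is no second condition, so each such test sets library against library and asks only whether counts differ by more than sampling of reads allows.

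Tpm3, a source of short cytoskeletal tropomyosins and of the slow muscle form, was the most read member. It lies at chr3:90072649-90100902 on the plus strand (ENSMUSG00000027940.18). It had 314 reads in replicate 1 and 293 in replicate 2, or 382 and 394 CPM, with a mean of 388 ± 8.19 CPM (SD, n = 2). The libraries lay close together. By mean CPM it ranked 339 of 18311 genes, and it took 62.9% and 65.5% of the reads of the 4 genes.

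Tpm1, which makes striated muscle, smooth muscle, cytoskeletal and brain isoforms, came next. It lies at chr9:67022590-67049406 on the minus strand (ENSMUSG00000032366.15). It had 132 reads in replicate 1 and 87 in replicate 2, or 161 and 117 CPM, with a mean of 139 ± 30.9 CPM (SD, n = 2) and rank 1373. Replicate 2 was the lower library. In the same direction, 4 of 4 oligodendrocyte and 2 of 5 neuron markers were called lower. So were 1 of 5 astrocyte and 1 of 3 choroid plexus markers, beside 0.834% of all genes tested. No marker of these lists was called higher. The median log2 ratio was -0.14 for the 5 neuron markers and 0.19 for the 5 astrocyte markers. At an unadjusted p under 0.05 in Fisher's exact test, 2 astrocyte markers were higher and 1 was lower. Beside these, 911 of the 8875 genes tested reached that level in either direction. Whether a different level of any of these cell types has a part in the Tpm1 count was not tested. In bulk tissue, fewer cells of a type and less RNA per cell cannot be told apart.

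Tpm4, a cytoskeletal tropomyosin, had 50 reads in replicate 1 and 62 in replicate 2. These are 60.9 and 83.3 CPM, with a mean of 72.1 ± 15.9 CPM (SD, n = 2) and rank 2931. The gene lies at chr8:72134975-72153142 on the plus strand (ENSMUSG00000031799.9). Replicate 2 was the higher library here, opposite to Tpm1. Tpm1 stood above Tpm4 in both libraries, although in replicate 2 their Wilson 95% intervals overlapped, from 94.8 CPM upward for Tpm1 and up to 107 CPM for Tpm4.

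Tpm2, best known from skeletal and smooth muscle, was near the floor. It lies at chr4:43514711-43523765 on the minus strand (ENSMUSG00000028464.16). It had 3 reads in replicate 1 and 5 in replicate 2, a mean of 5.19 ± 2.17 CPM (SD, n = 2) and rank 11296. Such counts place it below the other 3 genes and allow no statement on its isoform shares. Together the 4 genes had 499 and 447 reads, or 604 ± 4.69 CPM (SD, n = 2).

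**Figure D1:**
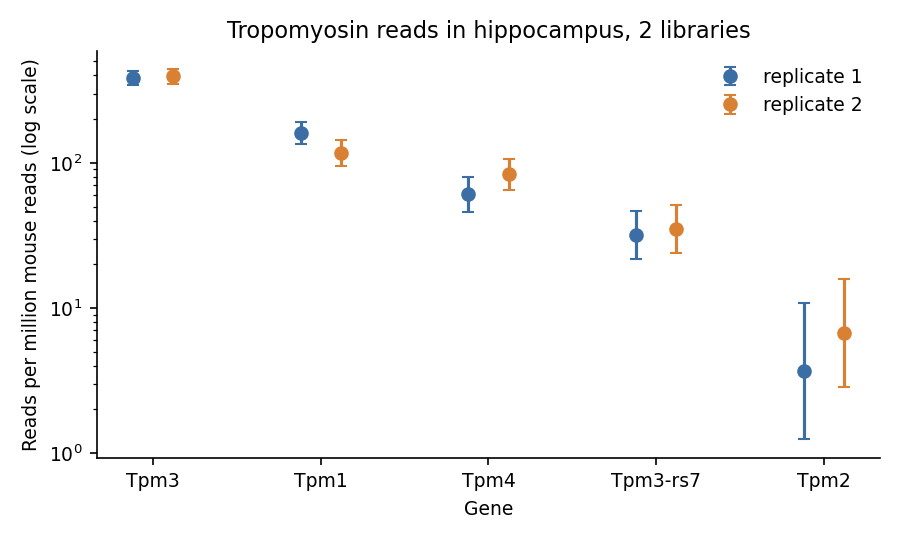
CPM (log scale) of the 4 tropomyosin genes and the Tpm3 retrogene Tpm3-rs7, one point for each library with its Wilson 95% interval. Tpm3 lies at 382 and 394, above Tpm1, Tpm4 and Tpm2 in both libraries.

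Of the 4 genes, 3 had enough reads to be tested between the libraries and 0 passed, against a background of 1.58% of genes. The log2 ratio of replicate 2 over replicate 1 was -0.46 for Tpm1, with an adjusted p of 0.347 in Fisher's exact test (unadjusted p 0.0214). It was 0.45 for Tpm4, with an adjusted p of 0.651 in the same exact test. For Tpm3 it was 0.04, with an adjusted p of 0.993 in the same exact test. At this depth a shift of Tpm1 or Tpm4 of that size was not distinguishable from counting error after adjustment over all genes.

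Most Tpm3 reads had a structure that GENCODE M21 does not hold. It joins first exon 1b, exons 3 to 5, exon 6b, exons 7 and 8, and last exon 9d, in 8 exons, with every splice site annotated and only their combination absent from the catalogue. It had 210 reads in replicate 1 and 192 in replicate 2, or 66.9% and 65.5% of all Tpm3 reads. The share was nearly the same in both libraries. The annotated transcript Tpm3-201 differs from it by exon 6a in place of 6b, and it had 60 and 54 reads, or 19.1% and 18.4%. These structures encode the short proteins called Tm5NM2 (with 6b) and Tm5NM1 (with 6a) in older literature.

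Lesser Tpm3 structures kept the same first exon. Tpm3-202, with 6b and an internal exon 9a before 9d, had 12 and 10 reads. Tpm3-203, with 6b and last exon 9c, had 9 and 10 reads. A further combination that is not annotated, with 6a, 9a and 9d, had 6 and 5 reads. In all, Tpm3 reads fell into 17 complete spliced structures, 3 of them annotated and 6 seen in both libraries. New splice sites were rare, with 8 and 6 reads spread over 9 structures, of which 1 was in both libraries.

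By class, new combinations of known splice sites held 68.5% ± 0.375 of Tpm3 reads (SD, n = 2) and annotated transcripts 25.5% ± 0.382. Over all known genes the same classes held 6.74% and 71.3% of reads. Tpm1 and Tpm4 differed from Tpm3 in this, with 84.6% ± 3.92 and 93.8% ± 0.319 of reads in annotated transcripts. Of 4753 genes with at least 20 complete spliced reads in each library, 267, or 5.62%, had a most read structure outside GENCODE M21. Among those 267 genes, Tpm3 ranked 12 by the reads of that structure, 402 over both libraries.

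**Figure D2:**
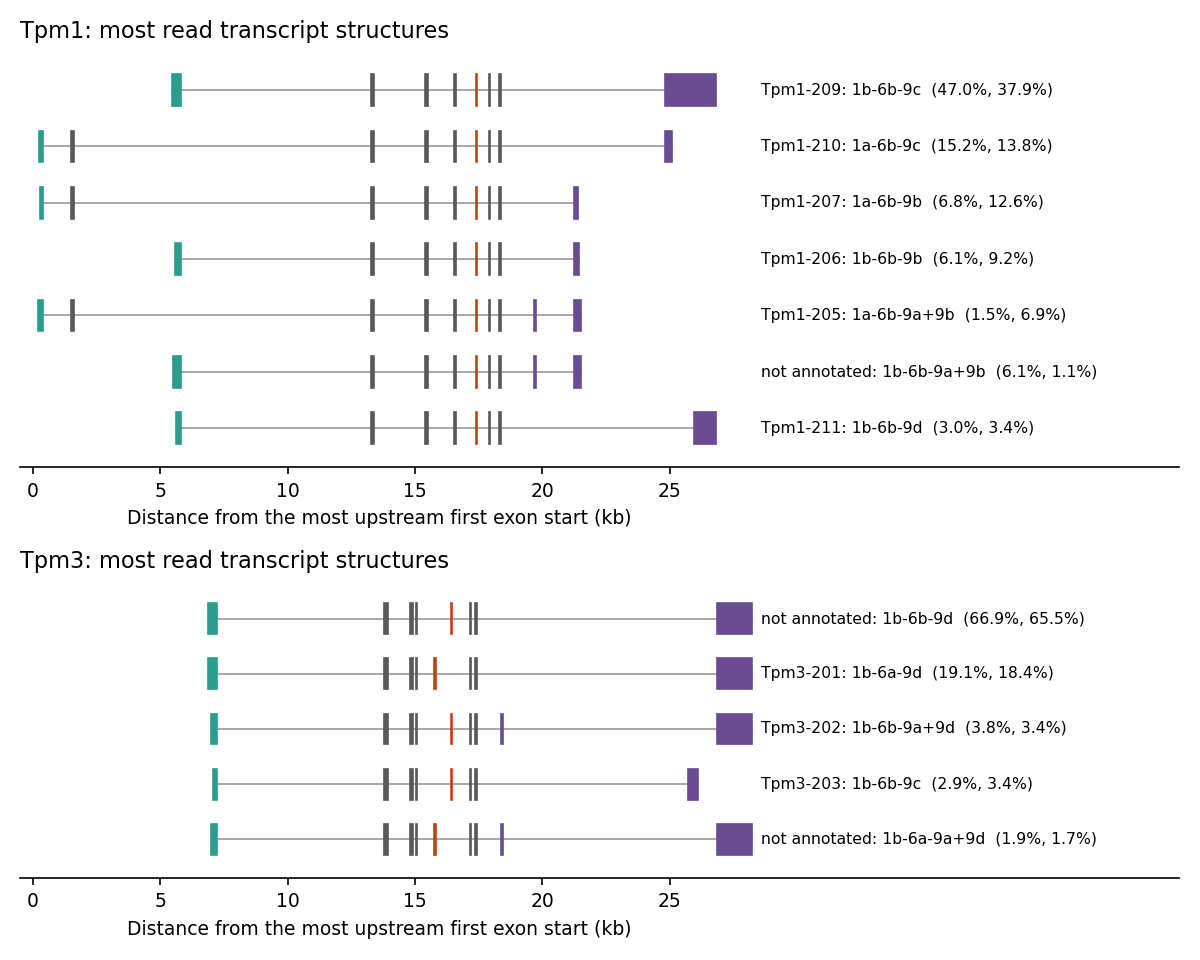
Exons of the most read transcript structures of Tpm1 (top) and Tpm3 (bottom), drawn to scale along the gene in kb, with first exons in green, exon 6 in orange and exons after 8 in purple; labels give first exon, exon 6, exons after 8 and the share of the gene's reads in replicates 1 and 2. Outer ends of annotated structures are the catalogue's. In Tpm3 the structure with 6b and 9d, not annotated, holds 66.9% and 65.5%.

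Exon 6 choice in Tpm3 followed from these structures. Over complete spliced reads, 6b was in 236 of 305 in replicate 1, or 77.4%, and in 218 of 280 in replicate 2, or 77.9%. Exon 6a was in 68 of 305, or 22.3%, and in 60 of 280, or 21.4%. No read held both. With incomplete matches included, as in the test, inclusion of 6b was 77.4% ± 0.614 and of 6a 22.2% ± 0.775 (SD, n = 2). Neither passed between the libraries, with an adjusted p of 1 for each in Fisher's exact test, and 0.0439% of the 2276 internal exons tested passed. The difference in 6b was 0.869 percentage points, replicate 2 minus replicate 1. Models placed on the opposite strand over both exons, with 28 and 16 reads, are in none of these counts.

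This value depended on which models were counted. With reads of annotated transcripts only, 6b was 25.9% in replicate 1 and 27.0% in replicate 2, and 6a was 74.1% and 73.0%. The order of the exons was reversed. The alternative leaves out the 210 and 192 reads of the structure that is not annotated, all of which hold 6b.

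**Figure D3:**
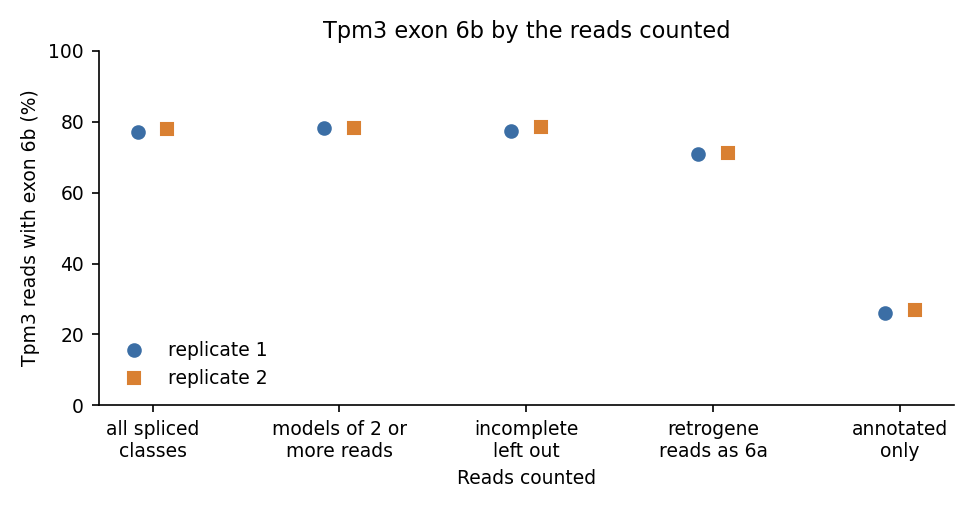
Share of Tpm3 reads with exon 6b (%) in each library by the reads counted. It stays between 71.0% and 78.4% for every rule that keeps models outside the catalogue and lies at 25.9% and 27.0% with annotated transcripts only.

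A retrogene bears on the 6a count. Tpm3-rs7 is a single exon of 2147 bases at chr14:113314608-113316754 on the plus strand. It carried the sequence of a spliced Tpm3 transcript with 1b, 6a and 9d. Over the 747 coding bases of Tpm3-201, stop codon included, it matched at 744. Its stretch at exon 6 is printed with capitals at the bases that differ from Tpm3 exon 6b.
Tpm3-rs7 stretch matching exon 6, chr14:113315131-113315206, plus strand: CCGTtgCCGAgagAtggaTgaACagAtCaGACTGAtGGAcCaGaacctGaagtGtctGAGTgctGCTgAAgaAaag
It equals Tpm3 exon 6a at 76 of 76 bases. Tpm3-rs7 had 26 reads in each library, or 33.3 ± 2.33 CPM (SD, n = 2), and passed no test between them (log2 ratio 0.14, adjusted p 1 in Fisher's exact test). Reads of so close a copy may be split between the genes by the alignment, so the counts of Tpm3-rs7 and of Tpm3-201 are uncertain. If all of its reads are given to Tpm3 as 6a, a choice made after seeing the data, 6b holds 71.0% and 71.3% and the mean CPM of Tpm3 becomes 421. At exon 6b the retrogene matches 39 of 76 bases, so the main Tpm3 structure differs from it there.

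In Tpm1 exon 6b stood almost alone. It was in 117 of 120 complete spliced reads in replicate 1, or 97.5%, and in 76 of 79 in replicate 2, or 96.2%. Exon 6a without 6b was in 0 and 1 reads, and 1 read in each library held both versions. Tpm4 has no choice here, and its single exon 6 was in 48 of 48 and 61 of 62 reads. The few Tpm2 reads held 6a in 1 and 2 cases and 6b in 1 and 1.

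First exons set the length of the protein. Tpm3 started at 1b in 302 of 305 reads in replicate 1 and in 280 of 280 in replicate 2. Exon 1a had 0 reads in both libraries, which allows a share of up to 0.984% and 1.07%. The other 3 reads of replicate 1 began at a first exon that is not annotated. Tpm4, whose coding transcript has 1b only, used it in 48 of 48 and 61 of 62 reads. All 2 and 3 complete Tpm2 reads started at 1a. Over the 4 genes, 1b held 91.6% and 91.7% of complete spliced reads.

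The 250 bases before RefSeq's start of each Tpm3 first exon are printed, since nearly all reads began at one of these exons. The RefSeq starts differ from those of GENCODE M21, so the 1a stretch runs 2 bases into exon 1a and the 1b stretch ends 19 bases short of exon 1b. Both come from RefSeq's promoter table (GRCm38.p6), run 5′ to 3′ on the plus strand, and have CG dinucleotides in capitals.
Tpm3 before exon 1a, chr3:90072401-90072650, plus strand: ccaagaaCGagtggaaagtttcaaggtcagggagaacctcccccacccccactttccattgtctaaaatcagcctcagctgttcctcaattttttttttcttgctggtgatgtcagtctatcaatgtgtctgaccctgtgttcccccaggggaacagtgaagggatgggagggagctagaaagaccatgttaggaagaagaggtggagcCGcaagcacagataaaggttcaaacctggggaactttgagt
Tpm3 before exon 1b, chr3:90079271-90079520, plus strand: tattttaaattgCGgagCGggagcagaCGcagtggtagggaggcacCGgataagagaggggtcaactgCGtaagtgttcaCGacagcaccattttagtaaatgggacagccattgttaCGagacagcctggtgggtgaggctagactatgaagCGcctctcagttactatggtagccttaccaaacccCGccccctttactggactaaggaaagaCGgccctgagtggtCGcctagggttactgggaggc
The 1a stretch held 2 CG dinucleotides and the 1b stretch 11, against a median of 6 over 32851 promoters of the table. Of these promoters, 35.6% held at least 11. TATAAA on either strand was in neither stretch and in 12.4% of all promoters. The E-box letters CANNTG, which read alike on both strands, occurred 1 time in each and at least 1 time in 66.2% of all promoters. The match of letters is a description and marks no site.

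Tpm1 used both starts. Exon 1b held 85 of 120 reads in replicate 1, or 70.8%, and 48 of 79 in replicate 2, or 60.8%. Exon 1a held 35 and 31 reads, or 29.2% and 39.2%. The mean for 1b was 65.8% ± 7.12 (SD, n = 2), and the Wilson 95% intervals of the libraries overlapped. The difference of -10.1 percentage points did not pass, with an adjusted p of 1 (unadjusted p 0.167) in Fisher's exact test. Of 3186 first exons tested, 0.251% passed. Reads from 1a took exon 2b in 34 of 35 and 30 of 31 cases. Exon 2a, the smooth muscle version, was in 1 read of each library.

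Tpm1 is thus the member that gives nearly all long tropomyosin reads here. In replicate 1 it had 35 of the 37 reads that start at 1a over the 4 genes, and in replicate 2 it had 31 of 34.

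**Figure D4:**
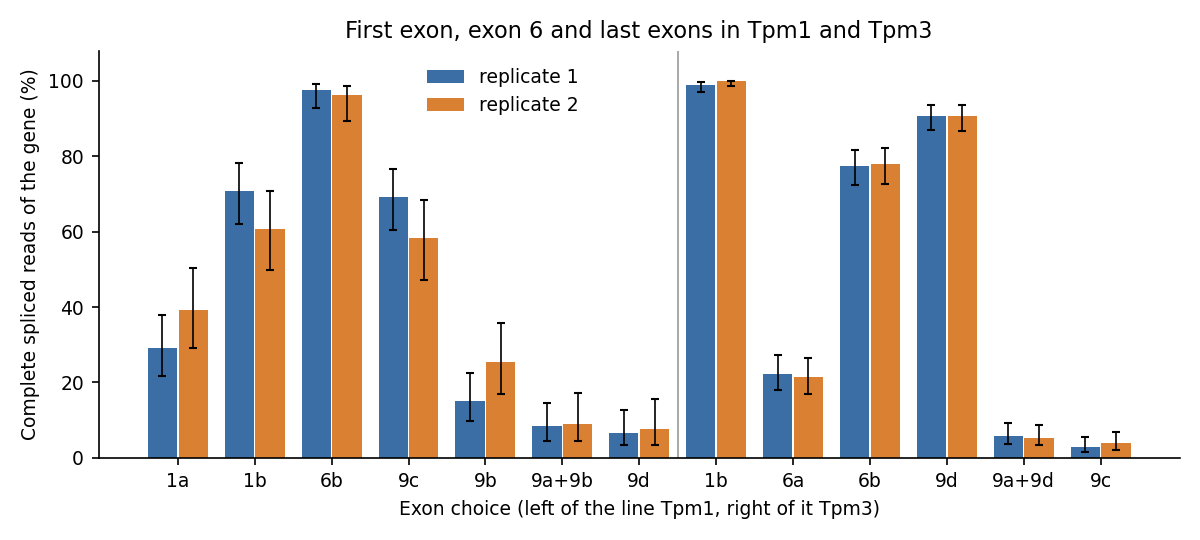
Share of complete spliced reads (%) with each first exon, exon 6 version and set of exons after 8, for Tpm1 (left) and Tpm3 (right); bars are libraries and error bars are Wilson 95% intervals. Tpm1 splits between 1a and 1b and among ends, while Tpm3 has 1b at 99.0% and 100% and 9d without 9a at 90.8% and 90.7%.

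The last exons give the proteins their ends. The coding part of each Tpm1 and Tpm3 exon after 8 that the reads used is printed from its acceptor to the stop codon, which is in capitals. Exon 9a carries no complete stop codon in the forms printed.
Tpm1 exon 9a, chr9:67029664-67029742, minus strand: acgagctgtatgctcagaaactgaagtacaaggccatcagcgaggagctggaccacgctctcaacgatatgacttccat
Tpm1 exon 9b, chr9:67028076-67028167, minus strand: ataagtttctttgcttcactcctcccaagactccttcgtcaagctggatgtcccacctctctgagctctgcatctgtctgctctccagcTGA
Tpm1 exon 9c, chr9:67024492-67024565, minus strand: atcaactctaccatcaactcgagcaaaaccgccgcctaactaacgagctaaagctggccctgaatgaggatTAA
Tpm1 exon 9d, chr9:67023359-67023441, minus strand: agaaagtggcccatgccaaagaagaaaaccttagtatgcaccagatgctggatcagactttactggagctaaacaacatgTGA
Tpm3 exon 9a, chr3:90091013-90091091, plus strand: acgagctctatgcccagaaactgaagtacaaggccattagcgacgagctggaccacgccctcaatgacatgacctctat
Tpm3 exon 9c, chr3:90098375-90098454, plus strand: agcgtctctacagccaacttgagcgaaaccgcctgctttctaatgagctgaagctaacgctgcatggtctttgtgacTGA
Tpm3 exon 9d, chr3:90099528-90099610, plus strand: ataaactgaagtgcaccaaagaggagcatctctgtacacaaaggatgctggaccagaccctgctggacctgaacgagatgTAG

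Tpm1 ended mostly in 9c, the brain form. Exon 9c held 83 of 120 reads in replicate 1, or 69.2%, and 46 of 79 in replicate 2, or 58.2%. Exon 9b as the only exon after 8 held 18 and 20 reads, or 15.0% and 25.3%. The pair 9a and 9b, in which the coding end is set by the muscle exon 9a, held 10 and 7 reads, or 8.33% and 8.86%. Exon 9d, the common end of cytoskeletal and smooth muscle forms, held 8 and 6 reads, or 6.67% and 7.59%. The order 9c, 9b, 9a with 9b, and 9d was the same in both libraries, and the last pair differed by 2 reads and 1 read.

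No Tpm1 end passed between the libraries, against 0.464% of the 1293 last exons tested. As a last acceptor, 9c was lower in replicate 2 by a difference of -10.9 percentage points, with an adjusted p of 1 (unadjusted p 0.130) in Fisher's exact test. Exon 9b, with or without 9a, differed by 10.8 points, with an adjusted p of 1 (unadjusted p 0.107) in the same exact test. A model placed on the opposite strand over part of 9c, with 36 and 22 reads, is in none of these counts.

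Among whole Tpm1 structures, 1b with 6b and 9c led. This is Tpm1-209, the form called TmBr-3 in older literature, with 62 reads in replicate 1 and 33 in replicate 2, or 47.0% and 37.9% of Tpm1 reads. Tpm1-210, its long counterpart from 1a, had 20 and 12 reads. Tpm1-207, from 1a to 9b, had 9 and 11 reads. Tpm1-206, from 1b to 9b, had 8 and 8 reads. The 4 structures above 5% of reads were all annotated. A further 2 reached 5% in a single library. Tpm1-205, from 1a through 9a to 9b, had 2 and 6 reads, and its counterpart from 1b, which is not annotated, had 8 and 1.

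Since each read holds both ends of a molecule, the link between first and last exon could be read in Tpm1. In replicate 1, 9c was in 63 of the 80 reads from 1b that ended in 9c or 9b, or 78.8%, and in 20 of the 31 from 1a, or 64.5%. In replicate 2, 9c was in 34 of 44 reads from 1b, or 77.3%, and in 12 of 29 from 1a, or 41.4%. Reads from 1b thus had the higher share of 9c in both libraries. Here 9b counts reads with or without 9a. From 1b, the pair 9a and 9b held 8 and 1 reads, and 9b alone 9 and 9. From 1a, the pair held 2 and 6 reads, and 9b alone 9 and 11. The split of the pair by first exon thus differed between the libraries. A link with 9b alone was not tested. The link passed in replicate 2, with an adjusted p of 0.0136 in Fisher's exact test, and missed the threshold in replicate 1, with an adjusted p of 0.322 in the same exact test. Links passed in 26.3% of 99 genes in replicate 1 and in 23.7% of 76 genes in replicate 2. Whether the libraries differ in the link was not tested. With annotated transcripts only, both passed, with an adjusted p of 0.0225 and 0.00307 in the same exact test. That setting drops, among others, the 8 and 1 reads from 1b through 9a, which end in 9b.

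**Figure D5:**
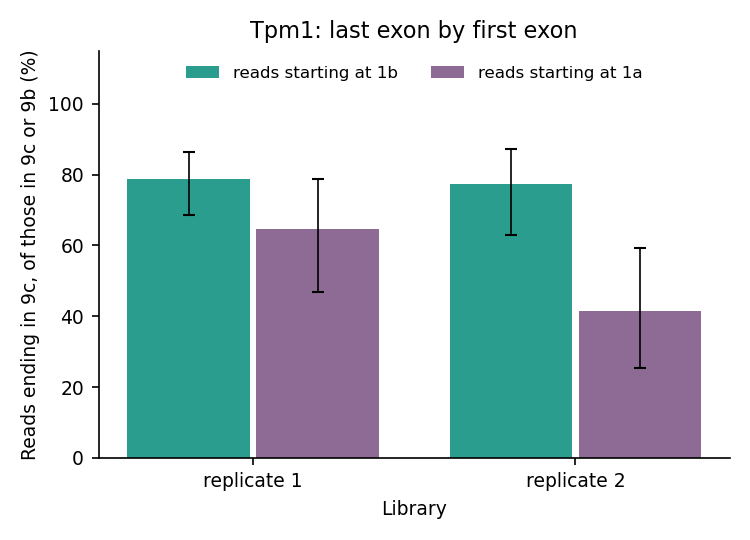
Share of Tpm1 reads ending in 9c, of those ending in 9c or 9b (%), by first exon and library. Reads ending in 9b are counted with or without 9a. Error bars are Wilson 95% intervals. Reads from 1b have 78.8% and 77.3%, those from 1a 64.5% and 41.4%.

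Tpm3 ended in 9d with no exon 9a in 277 of 305 reads in replicate 1, or 90.8%, and in 254 of 280 in replicate 2, or 90.7%. Exon 9a came before 9d in 18 and 15 reads, or 5.90% and 5.36%. Exon 9c held 9 and 11 reads, or 2.95% and 3.93%, and 9b held none as a complete end. The order of the ends was the same in both libraries. Inclusion of 9a passed no test (5.57% ± 0.438, adjusted p 1 in Fisher's exact test). Reads with 6a ended in 9d without 9a in 62 of 68 and 54 of 60 cases. Reads with 6b did so in 215 of 236 and 198 of 218. The shares of 91.2% and 90.0% for 6a and of 91.1% and 90.8% for 6b lay within each other's Wilson intervals.

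Exon 9c, the brain form of the end, held 129 of the 199 complete Tpm1 reads over both libraries and 20 of the 585 of Tpm3.

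Tpm4 showed a single structure. Tpm4-201 joins 1b, exons 3 to 8 and exon 9 in 8 exons, and it had 47 of the gene's 50 reads in replicate 1 and 58 of 62 in replicate 2. The other 5 structures were single reads with new splice sites, and none was in both libraries. Tpm2-203, with 1a, 6a and 9b, had 1 and 2 reads, and Tpm2-202, with 1a, 6b and 9a, had 1 and 1.

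Part of the reads held no complete structure. Single-exon models with genomic sequence made up 7.58% and 6.90% of Tpm1 reads. The genomic class held 6.49% and 7.82% of reads over all known genes. Those of Tpm1 lay over the intron after exon 1b, with 6 reads and 1 read, or near the 3′ end. Incomplete matches made up 2.55% and 4.10% of Tpm3 reads and 1.52% and 2.30% of Tpm1 reads, below the 10.5% of all known genes.

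Partners of tropomyosin on the actin filament were read from a list of 38 genes, of which 30 had reads and 21 could be tested. In replicate 2, 0 were higher (0.744% of all genes), 1 was lower (0.834%) and 20 did not pass. At an unadjusted p under 0.05 in Fisher's exact test, 1 was higher and 4 were lower, beside 911 of the 8875 genes tested in either direction. Over the 21 genes the median log2 ratio was 0.03, beside 0.01 over all genes tested. Cytoplasmic actins led, with 1798 and 1485 reads of Actg1 and 1046 and 953 of Actb. Cofilin Cfl1, which severs actin filaments, had 930 and 765 reads. The bundling protein Fscn1 had 486 and 516, the depolymerising factor Dstn 246 and 234, and the myosin light chains Myl6 and Myl12b 181 and 188, and 165 and 156. Gelsolin Gsn, a severing and capping protein, had 342 reads in replicate 1 and 119 in replicate 2. It was the member that fell, with a log2 ratio of -1.38 and an adjusted p of 1.72e-18 in Fisher's exact test. It was 1 of 74 genes called lower in replicate 2. Among these were markers of oligodendrocytes, neurons, astrocytes and choroid plexus, and the part of these cell types in it was not tested.

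Partners that work with tropomyosin in muscle ranged from no reads to counts above the floor, such as Myl9 with 21 and 11 reads. Tmod4, Lmod2, Cnn1, Actc1, Tnnt3, Tnni2, Tnni3 and Tnnc2 had no reads in either library. The neuronal tropomodulin Tmod2, which caps the pointed end of tropomyosin-coated filaments, had 76 and 66 reads. Of 7 striated muscle markers, 3 had reads, 10 and 9 in sum, with Acta1 at 4 and 7, Tnnt1 at 6 and 1 and Ckm at 0 and 1, and Actc1, Tnnt3, Tnni2 and Myh2 were at 0.

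Vessel wall cells also express tropomyosins. The 8 smooth muscle and pericyte markers summed to 168 and 145 reads, of which Rgs5 gave 113 and 105, Myl9 21 and 11 and Pdgfrb 19 and 12. Acta2 had 11 and 8 reads, and Cnn1 was at 0. Their part in the Tpm1 reads was not tested. Neuron markers were abundant, with 1658 and 1190 reads of Nefl, 1127 and 799 of Snap25 and 601 and 493 of Stmn2. Of the 5 neuron markers, 2 were lower in replicate 2 (0.834% of all genes) and 3 did not pass. Of the 5 astrocyte markers (Aldoc 1404 and 1032 reads, Gja1 842 and 733, Slc1a3 664 and 686), 1 was lower and 4 did not pass. The median log2 ratio of these 5 was 0.19. At an unadjusted p under 0.05 in Fisher's exact test 2 were higher and 1 was lower, beside 911 of the 8875 genes tested in either direction. Of the 3 choroid plexus markers, Ttr was the 1 that could be tested. It was lower, with 159 and 65 reads, beside Kl with 2 and 2 and Folr1 with 1 and 0. No microglial, endothelial, meningeal, smooth muscle or blood marker that was tested passed in Fisher's exact test, and at an unadjusted p under 0.05 the count was also 0. Those tested were 4 of 4 microglial, 3 of 5 endothelial, 3 of 5 meningeal, 3 of 8 smooth muscle and 3 of 3 blood markers. Their summed reads were 163 and 135 for microglia (most in Csf1r, C1qa and C1qb), 341 and 275 for endothelium (Cldn5, Flt1 and Ly6c1), 160 and 172 for meninges and fibroblasts (Col3a1, Col1a1 and Dcn) and 211 and 197 for blood (Hba-a1, Hbb-bs and Alas2).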

How the data were processed

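RNA of 2 libraries of 1 group was measured by long-read sequencing. Per the file headers and values, the deposited tables hold raw read counts per transcript model, not normalised, beside the number of exons and length in bases of each model and, in the deposited annotation files, exon positions and other descriptors. According to deposited notes, the authors worked on mm10 with GENCODE M21; aligner and transcript caller are not stated in the sources used here. The authors' classes are annotated, incomplete match, new combination of known splice sites, new splice site, genomic, antisense and intergenic. A catalogue that lacks a transcript moves its reads to the new classes, and model ends of annotated transcripts are the catalogue's, not measured.

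Reads were summed by gene name, first donor site, last acceptor site and exact internal exon in Python 3.11.15 with pandas 2.3.3 and SciPy 1.17.1; bedtools 2.31.1 and edgeR 4.0.16 served alternatives (reads over the same exons, TMM library sizes). "Complete spliced reads" are those of annotated, new-combination and new-splice-site models with more than 1 exon. CPM is reads per 1000000 mouse reads, with ERCC reads left out. Log2 ratios had 0.5 reads added. Values are means ± SD over 2 libraries. Shares have Wilson 95% intervals, and a count of 0 was taken to allow 3 reads; both cover counting error only, since amplified reads are not independent molecules.

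Tests were Fisher's exact tests, two-sided, over the whole table: genes with a pooled count of at least 20 reads, and first, last and internal exons with at least 20 reads in each library and shares of 5% to 95%. The first-by-last link used the 2 most read sites of each kind, with at least 20 reads and at least 5 in each margin. P-values were Benjamini-Hochberg adjusted, with a threshold of 0.05. With no contrast between conditions, edgeR's quasi-likelihood test was not applicable. The gene test was tested on simulated data. Exon sequences came from GENCODE M21 transcripts and promoters from RefSeq; all 4 genes matched. Named genes are the members, their related copies, the 8 partners with the most reads, partners called or at 0, and the 3 most read markers of each cell type. Outside this rule, Tmod2, Acta2, Mag and Myh2 were named after their values were seen. Members and lists were chosen with earlier results of these data known. One marker each of the oligodendrocyte and microglia lists is not reported here and is in neither list's counts.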

Additional observations from a re-analysis of the deposited data

Results flagged for a closer look

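Reads on the opposite strand lay over 2 of the members and above the 3 reads that a count of 0 allows. Over Tpm1 there were 38 such reads in replicate 1 and 22 in replicate 2, or 37.9 ± 11.8 CPM (SD, n = 2). Of these, 36 and 22 belonged to a single-exon model at chr9:67023441-67026826 on the plus strand, over part of exon 9c and touching exon 9d at its first base only. Over Tpm3 there were 29 and 17, or 29.1 ± 8.81 CPM. Of these, 28 and 15 belonged to a single-exon model at chr3:90088061-90089123 on the minus strand, which runs across exons 6a and 6b. Over Tpm2 there were 0 and 1, and over Tpm4 there were 0 in both. Models of 1 exon carry no splice site that would show their strand, and whether the reads come from the opposite strand was not tested. These reads are in no count of the genes.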

How the results depend on the processing

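With annotated transcripts only, Tpm3 had 99.1 CPM, and its exons 6a, 6b and 9a were at 73.5%, 26.5% and 14.2%. The construction of that setting leaves out the most read Tpm3 structure. The genes called went from 140 to 73, the first exons called from 8 to 0 and the last exons called from 6 to 0 by Fisher's exact test (66 and 35 at an unadjusted p under 0.05), with fewer of each tested. The Tpm1 link in replicate 1 became 24.1 percentage points and passed. With retrogene reads added to Tpm3, chosen after seeing the data, its level was 421 CPM, 6a 28.5% and 6b 71.1%. With models of at least 2 reads, 6b was 78.1%, the Tpm1 differences for exon 9a and last exon 9d reversed to -0.40 and -1.92 points (from 0.46 and 0.93), 9d was 5.07%, and 5 first exons and 0 internal exons (127 at an unadjusted p under 0.05) were called by Fisher's exact test. With incomplete matches counted, 2 last exons were called, and with them left out, 4 internal exons in place of 1; the cause was not tested. The gene calls under TMM library sizes, reads over the same exons, genomic models left out and other minimums stayed within 1.5 times the main count. Leaving out each replicate in turn gave 117 to 161 CPM for Tpm1, 382 to 394 for Tpm3, 60.9 to 83.3 for Tpm4 and 3.65 to 6.72 for Tpm2. No paired analysis was possible because there is 1 group. Depth limits Tpm2 and every share that rests on few reads.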
